A study of Mus musculus with 8 samples.

Results

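A set of 8 genes that make, fuse or maintain muscle cells was followed through the m6A peak lists of denervated and innervated mouse muscle. These are the myogenic transcription factors Myod1, Myf5, Myog and Myf6, the fusion proteins Mymk and Mymx, the satellite cell factor Pax7 and the imprinted zinc finger gene Peg3. They were chosen by name, with their peak calls, positions, widths and score ranks in these data already known, so those values are a description and were not tested. Of the 8 genes, 5 had a peak in at least 1 list, among 5981 genes with a peak in the whole series, and their 16 peaks stood among 38927.

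The samples were gastrocnemius (calf) muscles of 10-week-old male C57BL/6 mice, with 2 denervated muscles taken 14 days after denervation and 2 innervated muscles. The innervated muscles came from the opposite leg, so they belonged to animals that also had a denervated muscle. For each muscle, RNA captured with an antibody against N6-methyladenosine (m6A) was sequenced beside its uncaptured input, and the authors deposited 1 list of peaks per muscle. The labels do not say that replicates 1 and 2 are separate animals, so the spread between them may be technical.

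Myod1 and Myf5 commit precursor cells to the muscle lineage, while Myog drives their differentiation and Myf6 is a factor of mature fibres. All 4 are basic helix-loop-helix proteins that bind E-boxes in DNA together with E-proteins. Mymk (myomaker) and Mymx (myomerger) are membrane proteins that let myoblasts fuse into fibres. Pax7 marks satellite cells, the stem cells of muscle, and Peg3 is a paternally expressed gene also known as Pw1, found in muscle progenitor and interstitial cells. In rodents, Myod1 and Myog transcripts are known to rise after denervation. m6A is placed on RNA by a methyltransferase complex and can change how long a transcript lasts and how well it is translated.

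The lists held 9327 to 10300 peaks in 4149 to 4642 genes, with a median width of 249 to 250 bases. Read counts were not analysed here, so depth and transcript levels are unknown, and a missing peak does not show that a transcript was unmethylated or absent. In whole muscle, moreover, fewer cells of a type and less RNA per cell cannot be told apart. Of 17 marker genes of mature fibres, among them Acta1, Ckm, Myh4 and Ttn, 0 carried a peak in any list, so the tissue label could not be checked from these markers. Peaks carry a score of the authors with no stated meaning. It is given below as a percentile within its list, 100 at the smallest score, which was read as the strongest peak because the scores have the range of p-values, a reading that is uncertain.

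Myod1, Mymx and Peg3 were called in both denervated lists and in neither innervated list. Across all genes with a peak, 3.41% had this denervated-only pattern, or 4.24% of those called in at least 2 lists. The innervated-only pattern, with 3.14% of all genes with a peak and 3.91% of those called in at least 2 lists, held 0 of the 8 genes. Nor was any of the 8 called in all 4 lists, as 48.8% of genes with a peak were. The denervated lists held 4 and 3 of the 8 genes, against 0 and 2 in the innervated lists, or 3.5 ± 0.707 against 1 ± 1.41 (SD, n = 2 each). They held 7 and 7 peaks of these genes, against 0 and 2. Innervated replicate 1 was thus the library with no peak in any of the 8, and the groups did not overlap in either count. Of all genes with a peak, 76.9% and 70.7% were called in the denervated lists, against 69.4% and 77.6% in the innervated lists. Peaks in total numbered 9804 and 9496, against 9327 and 10300, so over all genes the groups overlapped in both measures. The counts of the 8 genes follow from the choice of genes, and nothing is read from the shares beside them.

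**Figure D1:**
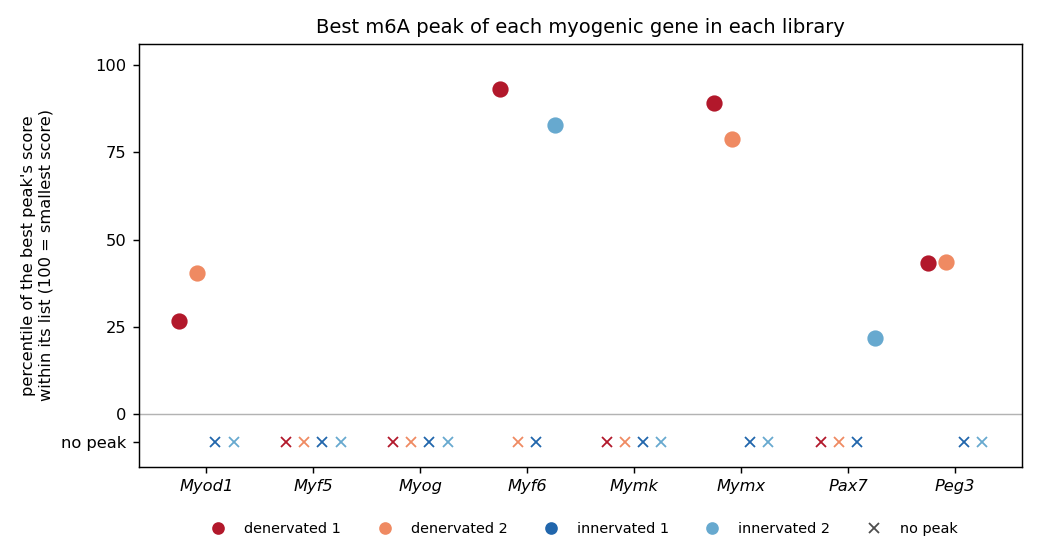
Percentile of each gene's best peak within its list (vertical axis, 100 at the smallest score) for the 8 genes (horizontal axis), with a dot per library and a cross where the gene had no peak. Mymx and Myf6 dots lie between 78.8 and 93.2, those of Myod1, Pax7 and Peg3 between 21.8 and 43.7, and Myf5, Myog and Mymk have crosses alone.

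Among the determination factors, Myod1 carried 1 peak in each denervated list and Myf5 none in any list. The Myod1 peak lay at chr7:46376572-46376767 (mm10, plus strand) in both lists, 196 bases wide, with the same first and last base. Of the 7260 peaks of denervated replicate 1 that overlapped a peak of denervated replicate 2, 10.2% had identical coordinates in this way. The peak began 98 bases after the gene's RefSeq start and ended 2325 bases before its end, so its midpoint stood at 7.46% of the 2619-base span. In the denervated lists, by comparison, 12.6% and 13.6% of placed peaks had their midpoint in the first 25% of the span, and 61.4% and 59.4% in the last 25%.

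The Myod1 score was 0.00072 in denervated replicate 1 and 0.00024 in denervated replicate 2, at percentiles 26.7 and 40.5. Both values lay on the larger-score side of their lists, whose median scores were 0.00014 and 0.00011. Of the genes in the lists, 3578 of 4601 and 2492 of 4230 had a smaller best score. Among denervated-only genes, Lacc1, Sco1 and Snupn came closest to Myod1 in the percentiles of their best peaks, with mean absolute differences over the 4 lists of 1.27, 1.75 and 2.04. In all such means, lists that called neither gene count as no difference, so the gap within the lists with a peak is larger. The nearest gene with a peak was the potassium channel gene Kcnc1, 17126 bases away. It had 0 and 3 peaks in denervated replicates 1 and 2, against 5 and 3 in innervated replicates 1 and 2.

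Of the differentiation factors, Myog carried no peak in any list, nor did Myoparr, the long non-coding RNA gene 242 bases from it. Myf6, the fourth factor, was called in denervated replicate 1 and in innervated replicate 2, so its calls did not follow denervation. That combination of lists alone was found for 208 genes, or 3.48%. The peak covered chr10:107494280-107494729 (minus strand, 450 bases) in denervated replicate 1, against chr10:107494579-107494729 (151 bases) in innervated replicate 2. Both began at the same base, 6 bases ahead of the RefSeq gene start, and the innervated peak lay wholly within the denervated one, sharing 33.6% of their joint length. The score was 5.6e-08 in denervated replicate 1 and 7.1e-07 in innervated replicate 2, at percentiles 93.2 and 82.9. Each was the highest percentile among the 8 genes in its list, and 286 of the 4601 genes of denervated replicate 1 and 751 of the 4642 genes of innervated replicate 2 had a smaller best score. Myf6 stands 5920 bases from Myf5 on the same chromosome, and Myf5 had no peak in the lists that called Myf6. With the same 2 lists, Lpar6, Zfp472 and Hoxa9 were nearest to Myf6, at mean differences over all 4 lists of 1.22, 1.26 and 1.34 percentiles.

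Of the fusion genes, Mymx carried 2 peaks in each denervated list, under its older name Gm7325, and Mymk carried none in any list. In denervated replicate 1 the Mymx peaks lay at chr17:45601064-45601162 and chr17:45601260-45601454, with widths of 99 and 195 bases on the minus strand. In denervated replicate 2 they lay at chr17:45601064-45601211 and chr17:45601308-45601552, with widths of 148 and 245 bases. The peaks nearest the 3′ end ended at the same base in both lists, 103 bases before the end of the 1236-base gene span. Gaps of 97 and 96 bases separated the peaks of a list, and their midpoints stood at 62.0% to 87.6% of the span. The score was 3e-07 in denervated replicate 1 and 5.9e-07 in denervated replicate 2 for both peaks of the list, at percentiles 89.1 and 78.8. A shared score is common, since of the genes with several peaks in these lists 55.8% and 70.0% had 1 score for all of them. Of the 204 denervated-only genes, 13 had a higher mean percentile than Mymx at 84.0, whereas 133 stood higher than Myod1 and 105 higher than Peg3. Fzd10, Dclre1a and Ncald were the denervated-only genes closest to Mymx, at mean differences over all 4 lists of 0.732, 0.765 and 0.889 percentiles. The neighbouring nucleoside transporter gene Slc29a1, 1342 bases away, had 1 and 1 peak in the denervated lists, against 0 and 1 in the innervated lists.

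**Figure D2:**
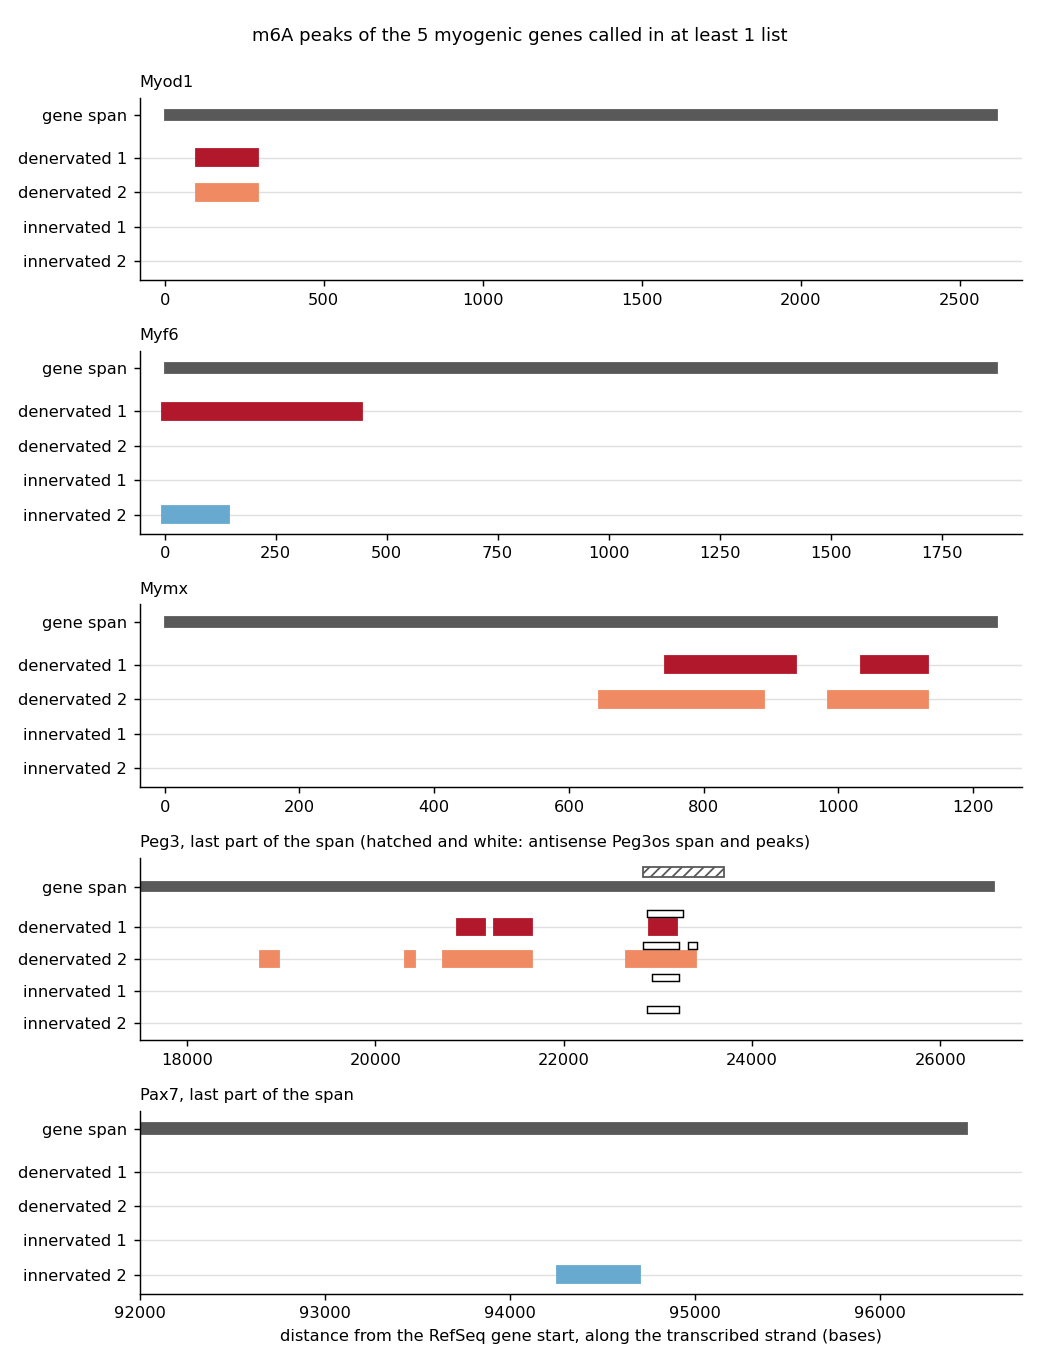
Peaks of Myod1, Myf6, Mymx, Peg3 and Pax7 in the 4 libraries (rows, denervated above innervated), drawn to scale by distance in bases from the RefSeq gene start along the transcribed strand, with the gene span as a dark bar. Myod1 and Myf6 peaks lie at the start of the span and those of Mymx, Peg3 and Pax7 towards its end, and in the Peg3 panel the white boxes of antisense Peg3os appear in all 4 rows.

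Peg3 carried 3 peaks in denervated replicate 1 and 4 in denervated replicate 2, against 0 and 0 in the innervated lists. They covered 1000 and 1997 bases. The 7 peaks compare with a median of 3 over both lists among denervated-only genes, of which 14 had more, and their 2997 bases with a median of 736.5, of which 7 genes had more. Peaks sharing at least 1 base on the same strand formed 4 regions, of which 2 were called in both denervated lists, at chr7:6707056-6707802 and chr7:6708798-6709745 on the minus strand. The other 2, at chr7:6710043-6710143 and chr7:6711487-6711687, were called in denervated replicate 2 alone. All midpoints stood at 71.0% to 86.8% of the 26571-base span. The widest peaks, of 948 and 747 bases in denervated replicate 2, were wider than 95.1% and 90.9% of the peaks of that list, while their counterparts in denervated replicate 1 measured 300 to 400 bases. All 3 Peg3 peaks of denervated replicate 1 scored 0.00023, at percentile 43.2, and 3 of the 4 of denervated replicate 2 scored 0.00019, at percentile 43.7. The remaining peak, the one farthest from the 3′ end, scored 0.0025, at percentile 11.3. Sox9, Plag1 and Mid2 were the denervated-only genes closest to Peg3, at mean differences over all 4 lists of 1.24, 1.80 and 2.26 percentiles.

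The Peg3 region nearest the 3′ end overlapped a transcript of the opposite strand. Peg3os, an antisense RNA gene at chr7:6706760-6707624, was called on the plus strand in all 4 lists, with 1 and 2 peaks in the denervated lists, against 1 and 1 in the innervated lists. The Peg3os percentiles were 98.8 and 97.7 in the denervated lists, against 99.0 and 99.2 in the innervated lists. The gene covered 569 bases, or 76.2%, of the Peg3 region at chr7:6707056-6707802. In denervated replicate 1, all 300 bases of the Peg3 peak there lay under the Peg3os peak of the same list. In denervated replicate 2, the 2 Peg3os peaks lay over 89 and 385 bases of the 747-base Peg3 peak. The library kit keeps strand, but how strand was used in peak calling is not given in the sources used here, so reads of the 2 genes may not be fully separated there. With peaks assigned to gene spans regardless of strand, Peg3 counted as called in all 4 lists. The region at chr7:6708798-6709745 began 1173 bases beyond Peg3os, and 0 innervated peaks overlapped it on either strand. Zim1, the next imprinted gene of the cluster, 7351 bases away, was called in all 4 lists, with 2 and 1 peaks in the denervated lists, against 3 and 3 in the innervated lists. Usp29, whose start lies 96 bases from that of Peg3, had no peak.

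Pax7 carried a single peak, in innervated replicate 2, and none in the denervated lists or in innervated replicate 1. The pattern of innervated replicate 2 alone was found for 359 genes, or 6.00%. The peak lay at chr4:139738826-139739274 on the minus strand, 449 bases wide, and ended 1767 bases before the end of the 96472-base span. Its score of 0.00093 stood at percentile 21.8, and 3792 of the 4642 genes of that list had a smaller best score. Iars2, Timm13 and Arhgef15 had nearly the same percentile in the same list alone, at mean differences over the 4 lists of 0, 0 and 0.0668.

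Over all 8 genes, 9 regions were formed, of which 5 were denervated only, in Myod1, Mymx and Peg3, and 0 innervated only. Of all 13116 regions, 3.67% were denervated only and 4.20% innervated only. All 16 peaks were a single unspliced block, as were 88.4% and 85.2% of all peaks in the denervated lists, against 88.5% and 87.5% in the innervated lists. With at least 50% of each peak required to overlap, 3 denervated-only regions were left, those of Myod1 and Mymx. Both Peg3 regions and the Myf6 region were then split, because their peaks were unequal in width between libraries.

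**Figure D3:**
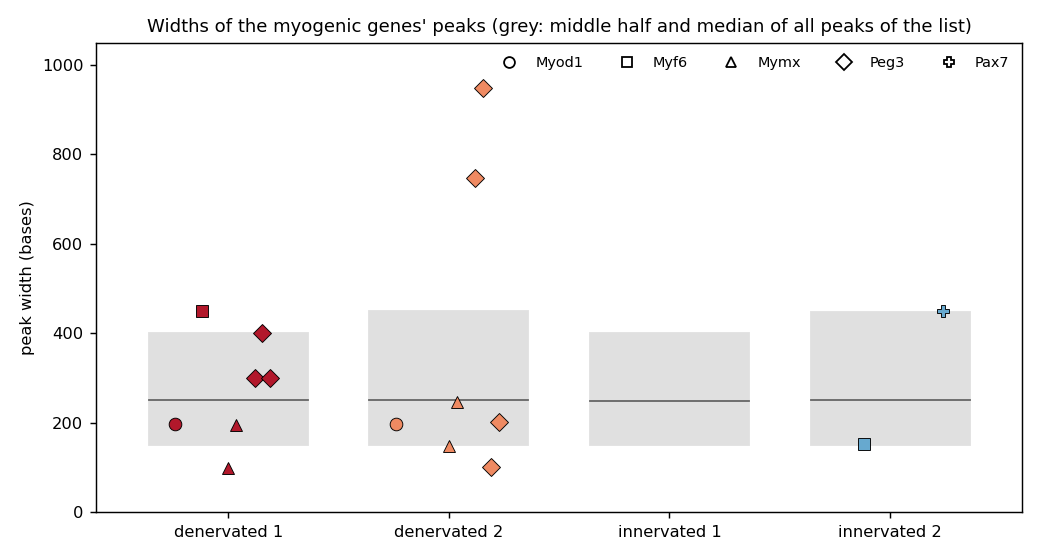
Width in bases (vertical axis) of each of the 16 peaks in each library (horizontal axis), with the middle 50% and the median of all peaks of the list in grey. The Peg3 peaks of 747 and 948 bases in denervated replicate 2 lie above the grey band and most others lie in or near it.

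The wider pathway was described through 7 lists of 217 other genes, which were also written with earlier results of these data known. Of these, 84 and 82 genes were called in the denervated lists, against 82 and 79 in the innervated lists. The means of 83 ± 1.41 and 80.5 ± 2.12 (SD, n = 2 each) gave a two-sided exact permutation p of 0.667. With 2 libraries per group the smallest p possible is 0.333, so this test could not have shown a difference. Of the 104 genes with a peak in any list, 5 were denervated only (4.81%) and 4 innervated only (3.85%), and 59 were called in all 4 lists (56.7%). Their median best percentile was 54.1, against 52.5 over all genes.

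E-proteins, Id proteins and MyoD cofactors partner with or restrain the myogenic factors. Of 35 such genes, 22 had a peak, 12 in all 4 lists, among them the E-protein gene Tcf12, the inhibitors Id2 and Twist1, and Msc (musculin). Id2 stood at percentiles 6.40 and 93.2 in the denervated lists, against 12.0 and 84.8 in the innervated lists, so the groups overlapped. Here 0 genes were denervated only, and Srf, which drives actin and muscle genes with its cofactors, was innervated only, with 3 peaks in each innervated list. Upstream regulators had 29 of 40 genes with a peak, 20 of them in all 4 lists, including Six2, Six4 and Eya1 of the network that turns on myogenic factors in the embryo. Klf5, a factor that works with MyoD in differentiating myoblasts, was denervated only, at percentiles 11.0 and 73.1. Dach1, of the Dachshund family of transcription cofactors, was innervated only, at percentiles 75.8 and 15.9.

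Fusion genes other than Mymk and Mymx held no group-specific call. Of 38 of them, 13 had a peak, and 9 were called in all 4 lists, among them the adhesion gene Jam3, the Rac activator partner Elmo2, the factor Nfatc2 and the receptor Il4ra. Over all genes with a peak, 3.41% were denervated only and 3.14% innervated only, so nothing is read from 0 of 13 genes. Nfatc2, which controls the growth of myotubes by later fusion, had 9 and 4 peaks in the denervated lists, against 10 and 8 in the innervated lists. Satellite cell genes other than Pax7 and Myf5 had 17 of 30 genes with a peak, in 13 and 11 genes of the denervated lists, against 12 and 12 of the innervated lists. Spry1, Heyl, Fgfr1 and Gpc1 were called in all 4, and Cav1 (caveolin) was innervated only, at percentiles 6.47 and 6.49.

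**Figure D4:**
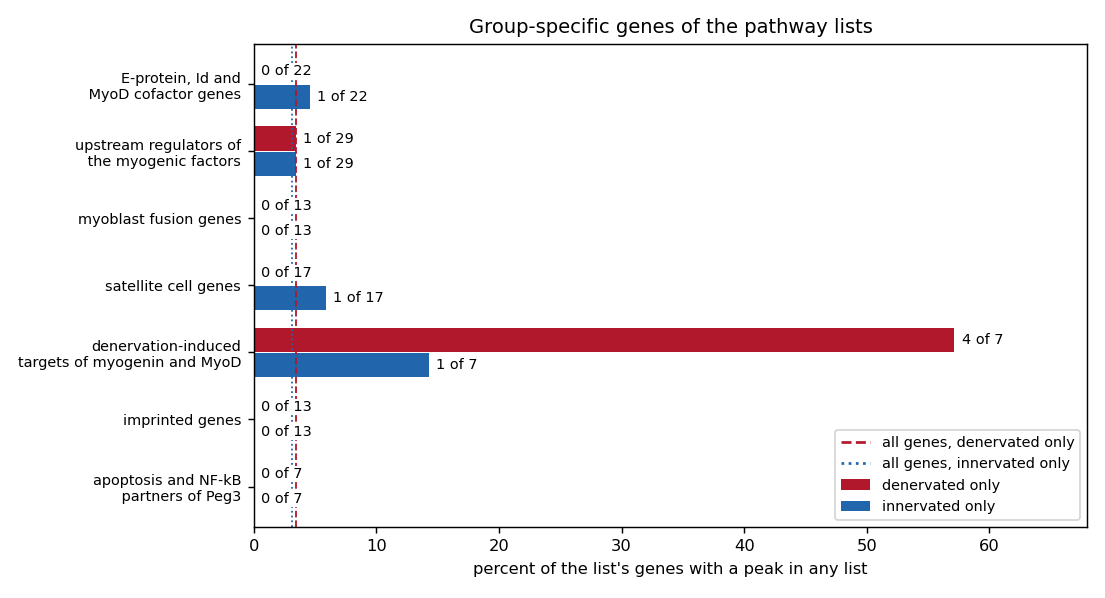
Percent of the genes with a peak in each of the 7 pathway lists that were denervated only (red, upper bar) or innervated only (blue, lower bar), with counts, and the same over all genes as vertical lines at 3.41% and 3.14%. Only the list of denervation-induced targets has more than 1 gene on a side, with 4 of 7 denervated only.

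The next list was named for denervation-induced targets of myogenin and MyoD, but induction and its route were not measured here. It had 6 and 6 genes called in the denervated lists, against 3 and 3 in the innervated lists. Among all genes with a peak, 76.9% and 70.7% were called in the denervated lists, against 69.4% and 77.6%. Of the 24 genes in this list, 7 had a peak, and 4 of these were denervated only, among them Chrnd, Runx1 and Ankrd1. Chrnd encodes an acetylcholine receptor subunit, Runx1 a transcription factor and Ankrd1 an ankyrin-repeat protein. Runx1 had 3 and 3 peaks, at percentiles 56.9 and 43.7, and Chrnd 1 and 1, at 34.7 and 33.0. Gadd45a was innervated only, and the receptor kinase gene Musk and the ubiquitin ligase gene Fbxo32 were called in all 4 lists. Musk stood at percentiles 87.4 and 81.6 in the denervated lists, against 84.5 and 78.9 in the innervated lists. This list is not independent evidence, because several of its genes were known to be denervated only when it was written.

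Imprinted genes other than Peg3 held no group-specific call. Of 40, 13 had a peak, in 8 and 9 genes of the denervated lists, against 10 and 7 of the innervated lists, and 5 were called in all 4, among them Zim1, Grb10, Igf2r and Zrsr1. Of 16 genes that act with Peg3 in apoptosis and NF-kB signalling, 7 had a peak and 6 were called in all 4 lists, including Siah1a, Siah2, Traf2 and Bcl2. None was specific to a group. Over all genes with a peak, 3.41% were denervated only and 3.14% innervated only. With 13 and 7 genes with a peak, nothing is read from the 0 counts of these lists.

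Markers of other cells in muscle were set beside these calls. Over 5 lists with 46 genes, 21 and 15 had a peak in the denervated lists, against 13 and 14 in the innervated lists. Denervated replicate 1 thus stood apart from the other libraries. Over all genes with a peak, the shares called were 76.9% and 70.7% in the denervated lists, against 69.4% and 77.6%. Of the 23 markers with any peak, 3 were denervated only (13.0%, against 3.41% of all genes) and 0 innervated only. The 13 markers of fibro-adipogenic and interstitial cells, where Peg3 is itself known to be expressed, had 8 and 5 genes called in the denervated lists, against 5 and 5. Among them the matrix gene Fbn1 was denervated only, Pdgfra was called in all 4 lists, and Dcn, Col3a1, Cd34 and Tcf21 had no peak. Schwann cell markers had 3 and 2 of 9 genes called in the denervated lists, against 0 and 1. Among the 4 with a peak, Ngfr and Sox2 were denervated only. The other 2 were called in 1 list each, denervated replicate 1 for 1 gene and innervated replicate 2 for the other. Mbp, Pmp22 and S100b were among those without a peak. Endothelial markers had 6 and 4 of 9 genes called in the denervated lists, against 4 and 4, with Cdh5 and Kdr in all 4 lists. Of 8 macrophage markers only Cd163 had a peak, in every list, and tenocyte markers had 3 of 7 in every list, among them Scx. The part of these cells in the calls of Myod1, Mymx and Peg3 was not tested.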

How the data were processed

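Per the file headers and list names, the authors deposited 4 peak lists, each from an IP library and its own input, not pooled. The score of each peak is the authors' value; neither its meaning nor the peak caller is stated. STAR 2.4.2a, ChIPseeker and the build mm10 appear in the submitters' processing notes. Depth is unknown. Coordinates are 1-based on mm10, and gene spans are those of RefSeq for GRCm38.p6, without exons. Of 5987 gene names, 5725 were RefSeq symbols, 249 older symbols and 13 unmatched.

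A gene was called in a list holding at least 1 peak of its name. Peaks sharing at least 1 base of their blocks on 1 strand were linked into regions, a step tested on simulated lists. Genes and lists were chosen with earlier results of these data known. Named were the 8 genes, up to 4 genes per list and class in list order, and the 3 protein-coding genes nearest each called gene in percentile, among genes called in exactly the same lists. Some of these are not reported here, and neighbouring genes and markers without a peak were added after their values were seen. The labels do not say whether same-numbered muscles came from 1 animal, and numbers were not taken as pairs. Deviations of gene calls of same-numbered libraries had a correlation of 0.00295. With 2 libraries per group, this value cannot show whether the muscles were paired. Python 3.11.15, scipy 1.17.1 and numpy 2.4.6 were used. Alternatives were score sides, equal peak numbers, gene spans, overlap rules and each library left out. Motif content of peaks was not analysed here.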

Additional observations from a re-analysis of the deposited data

How the results depend on the processing

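Myod1, Mymx and Peg3 remained the 3 denervated-only genes with equal numbers of peaks, with same-strand gene spans and without each library in turn. Leaving a library out loosens the definition: 6.07% to 10.0% of all genes with a peak were then denervated only, against 3.41% with all 4. When each list was limited to the 50% of its peaks with the smallest scores, Mymx alone was left (1 gene, and a difference of 1 called gene per library instead of 2.5), and with the 50% with the largest scores Myod1 and Peg3 were, because each gene's best peaks lie on 1 side of that limit. Regardless of strand, an alternative chosen after seeing the data, Myod1 and Mymx were left. Denervated-only regions numbered 3 instead of 5 with reciprocal overlap, and 4 with peaks within 500 bases joined. Without 1 library, the difference in genes called was 1.5 to 3.5, denervated-only genes 3 to 3, denervated-only regions 5 to 7, and innervated-only genes 0 to 1, the 1 being Pax7 without innervated replicate 1. Of the pathway genes, 3 were denervated only and 6 innervated only with the smallest scores, and 8 and 3 with the largest, instead of 5 and 4. Without 1 library, under the looser definition above, the denervated-only ones were 8 to 10, the innervated-only ones 5 to 9, and the difference in genes called 1 to 4. Paired by replicate number (replicate block), that difference stayed 2.5 (exact permutation p = 0.5, the smallest possible). Of 126 counts for single lists, 45 moved, by more than 1.5 times or by a change from or to 0. Most of the main counts were 0 or 1, so a change of 1 gene could count as moved. If large scores mark strong peaks, the best peaks in denervated replicates 1 and 2 stand at percentiles 10.9 and 21.2 for Mymx, 73.3 and 59.5 for Myod1, and 56.8 and 88.7 for Peg3, whose best peak in replicate 2 is then another one.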
